A study of Mus musculus with 6 samples.

Results

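The genes described here are the mouse receptor genes whose symbols begin with Gpr and a number, with Adgr, or with Mrgpr: the numbered orphan and deorphanised G protein-coupled receptors, the adhesion receptors and the Mas-related (Mrgpr) receptors. Adgre1, which encodes the macrophage antigen F4/80, was left out of the members and used as a macrophage marker. The symbol rule found 112 of the 17890 genes in the table. Of these, 68 had 20 or more reads summed over all libraries and are described, and 55 of the 68 passed the filter on low counts and were tested. The filter can pass a gene through the group in which it is high, so counts over the 55 cover the members tested and not all members.

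The study sequenced RNA of mast cells from mouse lymph nodes. The 3 libraries called uLN came from uninvolved nodes and the 3 libraries called mLN from the nodes labelled as metastatic. The mouse strain, age and sex, the tumour, and the way the mast cells were obtained were not stated in the sources used here, and no treatment or allele is named for either group. Nothing in the labels says that the replicates are separate animals, so the p-values refer to library-to-library spread only, and that spread may be technical in origin. These are bulk samples, and fewer cells of a type cannot be told apart from less RNA per cell.

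G protein-coupled receptors are membrane proteins that pass a signal from outside the cell to heterotrimeric G proteins, and arrestins and receptor kinases end that signal. Mast cells of connective tissue carry Mrgprb2, the mouse counterpart of human MRGPRX2, through which basic peptides such as substance P, and a number of drugs, release granules without IgE. Most Mrgpr genes are otherwise known from the sensory neurons of itch and pain. Adhesion receptors have a long extracellular part that is cut from the membrane part during maturation and binds matrix proteins or proteins of neighbouring cells. Orphan receptors are those for which no ligand is agreed on.

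The libraries held between 17643879 and 17799365 rounded estimated counts, and between 15639 and 16218 genes had at least 1 count. A library's detection floor of 3 counts was 0.164 to 0.172 CPM, the count scaled to normalised library size, covering counting error only. Each of the 12 mast cell markers was found. Of these, 4 were higher in mLN, such as Tpsb2 (2.06-fold), and 6 lower, such as Kit (2.47-fold). Their summed level was 44043 to 45960 CPM in uLN and 42999 to 45750 CPM in mLN. Summed markers of macrophages and monocytes were 88.2 to 105 CPM in uLN and 181 to 194 CPM in mLN, with Cd68 and Adgre1 higher and Csf1r, Cd163, Mrc1 and C1qb lower. Summed markers of T and NK cells were 0.0573 to 0.172 CPM in uLN and 0.344 to 1.17 CPM in mLN, with 3 of 5 markers found. Those of B cells were at 0.282 to 0.493 CPM in all 6 libraries, with 3 of 4 found. Fibroblast and keratinocyte markers stood out in mLN replicate 1, which held 591 reads of Dcn and 2101 of Krt5. Summed endothelial markers were 888 to 932 CPM in uLN and 740 to 788 CPM in mLN, with 1 of 2 tested lower. Those of eosinophils and basophils were 1.81 to 2.18 CPM in uLN and 4.82 to 5.70 CPM in mLN. Neutrophil markers summed to 6.08 to 7.45 and 5.70 to 7.28 CPM, and melanocyte markers to 5.45 to 6.60 and 6.95 to 12.8 CPM. The part of these cells in the receptor levels was not tested.

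Among the 55 tested receptor genes, 27 fell and 13 rose in mLN, and 15 did not pass the test (edgeR quasi-likelihood test, adjusted p under 0.05 after Benjamini-Hochberg correction over all tested genes). The calls covered 72.7% of the tested receptors, against a background of 67.4% of the 12706 genes tested. The share that fell was 49.1%, against 34.2% of all tested genes, and the share that rose was 23.6%, against 33.2%. Of the changes of at least 2-fold, 13 were falls, which is 23.6% of the tested receptors against 6.16% of all tested genes. Only 2 were rises, Gpr132 and Adgrg1, which is 3.64% against 9.7%. The median log2 fold change (mLN over uLN) was -0.17 for the receptors and -0.01 for all tested genes; with no filter on low counts, which adds receptors of few reads, it was 0.00 and -0.03. In 42 of the 55 receptors, or 76.4%, the values of the groups did not overlap, against 72.9% of all tested genes. These shares are descriptions of the receptor genes, several of which share sequence or lie side by side, and no test set them against the other genes.

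**Figure D1:**
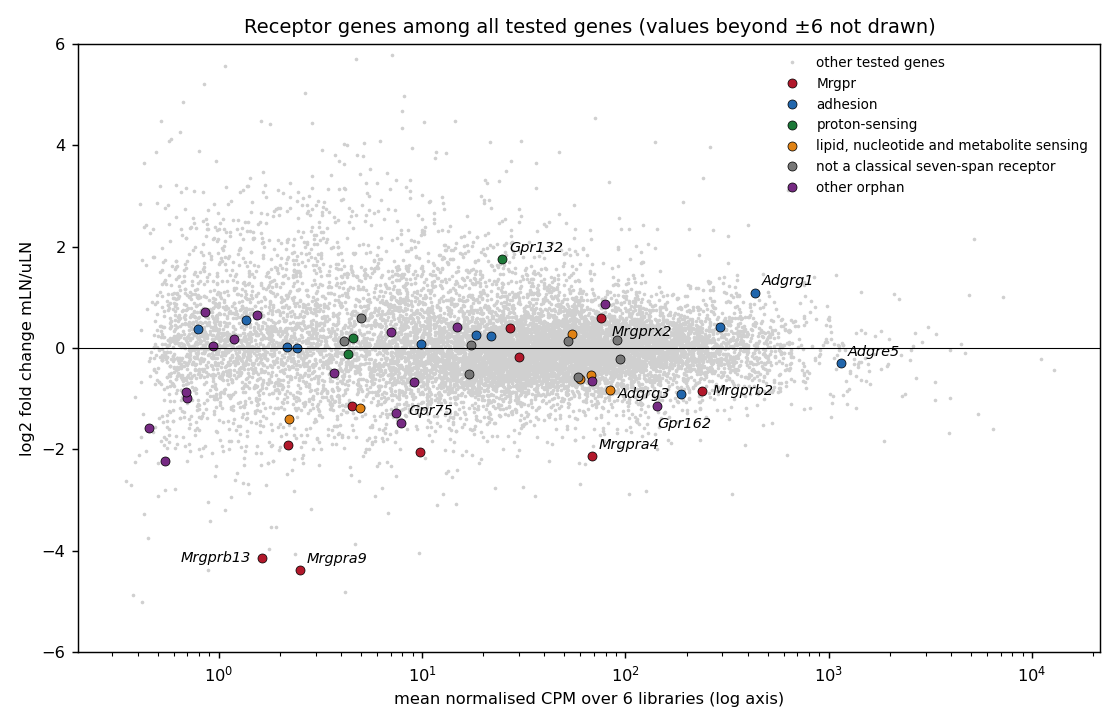
Receptor genes among all tested genes. The x axis is the mean normalised CPM over the 6 libraries (log axis), the y axis the log2 fold change of mLN over uLN, grey points are the other tested genes and coloured points the tested receptors by role; Mrgpra9 (-4.37) and Mrgprb13 (-4.14) lie lowest among the receptors and Gpr132 (1.76) highest.

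The Mrgpr genes held the largest falls. All 10 described Mrgpr genes were called, 8 lower and 2 higher, with a median log2 fold change of -1.53, against 34.2% lower and 33.2% higher of all tested genes. The lower call of Mrgprb1 was lost in 10 of 13 alternative settings. Of these, 9 belong to a cluster on chromosome 7 (GRCm38, 47234919 to 48643801), which spans 1409 kb and holds 12 of the table's genes; the remaining gene, Mrgpre, lies apart on the same chromosome (143778363 to 143784500). Promoter sequences from RefSeq (GRCm38.p6, 250 bases before to 50 after the annotated start) are shown for 2 pairs of close relatives in the cluster. The members of the Mrgpra9 and Mrgpra1 pair both fell, and in the Mrgprb1 and Mrgprx2 pair Mrgprx2 rose while Mrgprb1 was barely called lower (adjusted p = 0.0465). Capitals in the sequences of Mrgpra9, at chr7:47252830-47253129, and Mrgpra1, at chr7:47354191-47354490, both on the minus strand, mark AGATAA, a form of the motif bound by GATA factors.

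Mrgpra9: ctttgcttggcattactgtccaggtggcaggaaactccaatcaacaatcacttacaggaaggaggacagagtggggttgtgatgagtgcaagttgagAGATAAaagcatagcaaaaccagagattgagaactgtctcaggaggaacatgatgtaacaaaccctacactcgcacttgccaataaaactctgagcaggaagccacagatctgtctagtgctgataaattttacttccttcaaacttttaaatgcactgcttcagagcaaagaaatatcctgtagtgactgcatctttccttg
Mrgpra1: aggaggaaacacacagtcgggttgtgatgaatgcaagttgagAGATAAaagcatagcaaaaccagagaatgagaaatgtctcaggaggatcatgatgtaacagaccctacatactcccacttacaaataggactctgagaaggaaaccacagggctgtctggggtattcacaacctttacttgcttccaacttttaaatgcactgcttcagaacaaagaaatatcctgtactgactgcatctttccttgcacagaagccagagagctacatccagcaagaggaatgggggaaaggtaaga

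The windows were identical at 61.4% of aligned columns, gaps included, and the motif fell in the same aligned column, within a shared run of 37 bases. Capitals in the sequences of Mrgprb1, at chr7:48456293-48456592, and Mrgprx2, at chr7:48499221-48499520, both on the minus strand, mark the longest run that the windows share, 23 bases.

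Mrgprb1: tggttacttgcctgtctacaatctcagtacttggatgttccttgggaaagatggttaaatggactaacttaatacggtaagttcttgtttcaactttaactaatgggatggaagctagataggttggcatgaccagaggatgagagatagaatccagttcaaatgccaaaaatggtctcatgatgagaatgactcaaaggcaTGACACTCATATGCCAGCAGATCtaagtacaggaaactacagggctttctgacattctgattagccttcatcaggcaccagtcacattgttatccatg
Mrgprx2: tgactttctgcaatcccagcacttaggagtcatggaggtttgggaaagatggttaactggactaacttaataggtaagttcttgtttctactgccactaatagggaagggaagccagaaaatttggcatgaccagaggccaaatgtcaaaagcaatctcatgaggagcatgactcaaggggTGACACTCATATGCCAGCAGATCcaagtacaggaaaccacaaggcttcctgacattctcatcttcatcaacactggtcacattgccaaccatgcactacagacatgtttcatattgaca

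These windows were 68.0% identical by the same measure and hold neither AGATAA nor CATGTG, an E-box bound by MITF. Other pairs of Mrgpr windows from the cluster, aligned in the same way, were 48.1% to 54.8% identical. Searched on both strands, AGATAA was found in 11.2% of 32851 RefSeq promoters, and CATGTG in 14.2%. The shares were 10.3% and 14.7% of 68 promoter windows, which come from 53 of the described receptors. Some of these genes have several windows, which can overlap, and other described receptors, Mrgpra3 among them, have none. Mrgpra4, Mrgprb13 and Mrgpre have CATGTG, and Mrgprx1 has AGATAA. A match is a description of the letters, and the annotated starts of these short gene models may not be the starts used in mast cells.

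Mrgprb2, the mast cell receptor for basic secretagogues, had the most reads of the Mrgpr genes. Its 3 uLN libraries held 5409, 5226 and 5520 reads and its mLN libraries 3150, 3199 and 2771. Every mLN value lay below every uLN value. The level fell 1.81-fold, from 307 ± 11.3 to 170 ± 9.68 CPM (SD, n = 3 per group; log2 fold change -0.86 ± 0.05 SE, edgeR adjusted p = 2.97e-07). Mrgprx2 (gene ID 243978), listed in RefSeq also as Mrgprb10 and not to be read as the human gene of that name, moved the other way. It had 1042, 1002 and 1119 reads in uLN and 1652, 1688 and 1538 in mLN. All mLN libraries were higher, and the level rose 1.51-fold from 60.2 ± 3.89 to 90.9 ± 2.80 CPM (edgeR adjusted p = 7.19e-06). Mrgprb1, which lies between Mrgprb13 and Mrgprx2, had 524, 559 and 595 reads in uLN and 533, 508 and 481 in mLN. These read counts overlapped, while the values scaled to library size did not: the means were 31.9 ± 2.10 and 28.4 ± 0.795 CPM. The fall of 1.13-fold passed narrowly (edgeR adjusted p = 0.0465), and the adjusted p reached 0.167 among the alternatives.

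The Mrgpra genes, whose members in sensory neurons answer to pruritogens and neuropeptides, were all lower where they could be tested. Mrgpra4 had the most reads, with 1860, 1943 and 2042 reads in uLN and 481, 555 and 324 in mLN. The groups lay far apart, and the level fell 4.39-fold from 111 ± 5.51 to 25.3 ± 6.20 CPM (edgeR adjusted p = 3.1e-07). Mrgpra3, the chloroquine receptor of itch neurons, had 274, 267 and 283 reads in uLN and 72, 81 and 51 in mLN. It fell 4.12-fold, from 15.7 ± 0.595 to 3.79 ± 0.799 CPM (edgeR adjusted p = 6.11e-07), with no overlap. Mrgpra1, a receptor for bilirubin, had 54, 65 and 63 reads in uLN and 19, 23 and 7 in mLN, a fall of 3.78-fold (edgeR adjusted p = 0.000385). Mrgpra9 was close to the detection floor in mLN, where its libraries held 4, 5 and 3 reads against 101, 73 and 77 in uLN. The fitted fall was 20.7-fold (log2 fold change -4.37 ± 0.30, edgeR adjusted p = 6.15e-07). The ratio of summed reads, scaled to library size, was 0.0468, with an exact 95% interval of 0.0239 to 0.0833 for counting error only.

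Reads of near-identical copies could be split among the Mrgpra genes by the counting. Of the 50-base words in the GENCODE transcripts of Mrgpra9, 12.8% also occur in transcripts of other genes, and the shares were 13.1% for Mrgpra4, 7.14% for Mrgpra3 and 3.08% for Mrgpra1. Summed over the 6 Mrgpra genes of the table, which leaves any such split within the family out of account, the level was 136 ± 5.65 CPM in uLN and 30.2 ± 7.54 CPM in mLN, a 4.48-fold lower mean. Mrgpra4 made up most of this sum, with 111 CPM in uLN and 25.3 CPM in mLN. The sum therefore says little about reads split among the smaller members. The family's remaining members, Mrgpra2a and Mrgpra2b, had 18 and 7 reads in all libraries together. Of their 50-base words, 87.5% and 81.2% also occur in transcripts of other genes. In uLN replicates 1 to 3, Mrgpra2a had 7, 8 and 0 reads and Mrgpra2b had 0, 0 and 7. The level of either gene alone is therefore uncertain. Summed over the 15 Mrgpr genes found, the level was 547 to 591 CPM in uLN and 324 to 376 CPM in mLN, with Mrgprb2 adding the most reads in each group.

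Mrgprb13 had 51, 43 and 68 reads in uLN and 1, 6 and 2 in mLN. All mLN libraries lay below the uLN libraries, and mLN replicates 1 and 3 were below the detection floor of 3 counts. The scaled ratio of summed reads was 0.0544, with an exact 95% interval of 0.0244 to 0.106 for counting error only. The fitted log2 fold change was -4.14 ± 0.45 (edgeR adjusted p = 1.52e-05), and it was -5.08 without mLN replicate 2. Mrgprx1, listed in RefSeq also as Mrgprc11 and known as an itch receptor for a peptide cut from proenkephalin, had 120, 104 and 104 reads in uLN and 54, 65 and 33 in mLN. It fell 2.20-fold, with no overlap (edgeR adjusted p = 0.000837). Mrgpre, an orphan known from sensory neurons, had 416, 408 and 411 reads in uLN and 606, 621 and 437 in mLN. It rose 1.32-fold from 23.5 ± 0.422 to 30.9 ± 5.11 CPM (edgeR adjusted p = 0.00776), and mLN replicate 3 lay close to the uLN values. That library was the lowest of the mLN libraries for 9 of the 10 Mrgpr genes, which is 90.0%, and for 58.2% of all tested receptors, against 42.1% of all tested genes.

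**Figure D2:**
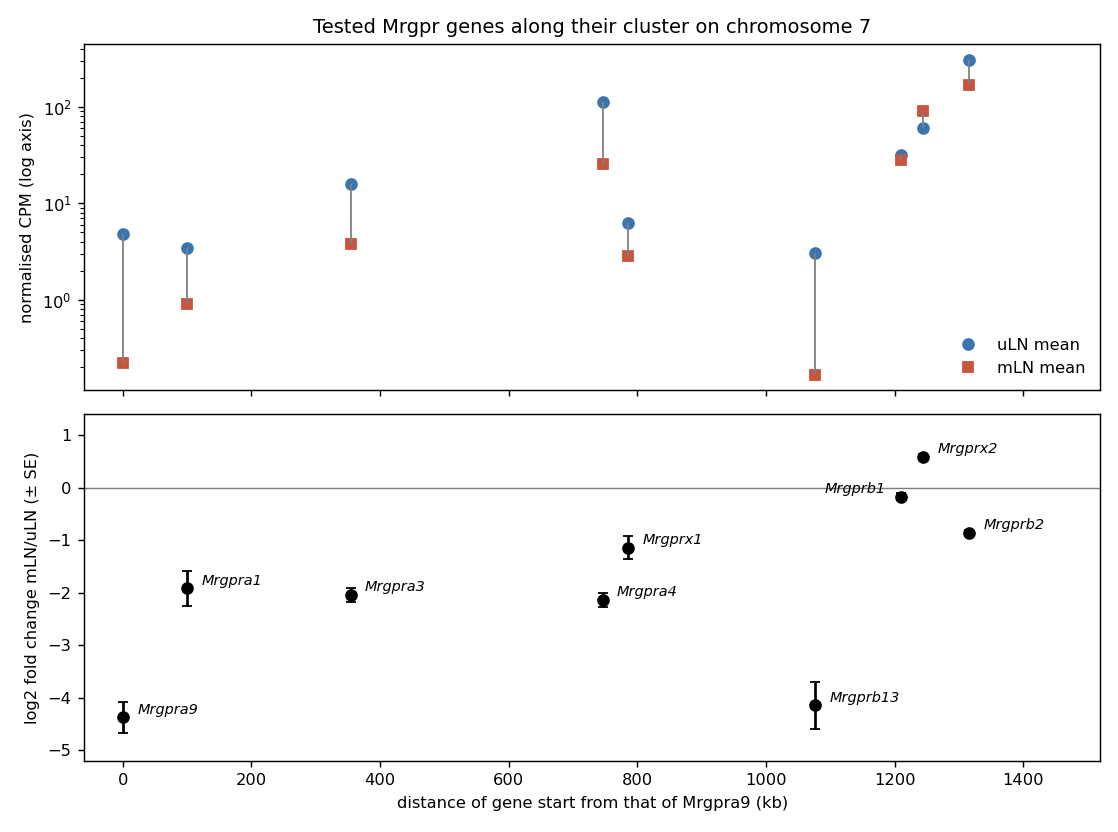
Tested Mrgpr genes along the chromosome 7 cluster. The x axis is the distance of each gene's start from that of Mrgpra9 in kb; the upper panel gives mean normalised CPM in uLN (circles) and mLN (squares) on a log axis, the lower panel the log2 fold change of mLN over uLN with its SE. Mrgprx2 (0.59) is the only point above 0, and it lies between Mrgprb1 (-0.17) and Mrgprb2 (-0.86).

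Falls within the cluster did not go on evenly into the genes beside it. On the side of Mrgpra9, Tsg101, Uevld, Spty2d1 and Tmem86a were called higher, with log2 fold changes from 0.17 to 2.07, and Ptpn5 was not called. On the side of Mrgprb2, Csrp3 was called higher (0.71), E2f8 was called lower (-1.05), and Zdhhc13, Nav2 and Htatip2 were not called. No other tested gene lies between the Mrgpr genes of the cluster.

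Adhesion receptors moved in both directions. Their summed level was 2048 to 2153 CPM in uLN and 2099 to 2163 CPM in mLN and these ranges overlap. Of 26 adhesion genes found, 14 were described and 11 tested, of which 4 rose, 2 fell and 5 did not pass the test. The shares were 36.4% higher and 18.2% lower, against 33.2% and 34.2% of all tested genes. Their median log2 fold change was 0.24.

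Adgre5, the leukocyte receptor CD97 that binds CD55 on other cells (chromosome 8, 83723245 to 83741311), had the most reads of any receptor in each library. It had 22610, 21848 and 22119 reads in uLN and 19082, 18832 and 17142 in mLN. The groups did not overlap, and the level fell 1.24-fold from 1267 ± 31.7 to 1025 ± 35.8 CPM (edgeR adjusted p = 0.000103). Adgrg1, the receptor GPR56 that binds collagen III and transglutaminase 2 (chromosome 8, 94974756 to 95014208), had 4997, 4752 and 4783 reads in uLN and 10720, 10258 and 10655 in mLN. Each mLN library was above each uLN library, and the level rose 2.13-fold from 276 ± 9.25 to 590 ± 20.8 CPM (log2 fold change 1.09 ± 0.05, edgeR adjusted p = 2.49e-08). NK cells also express Adgrg1. The summed T and NK cell markers were 0.0573 to 0.172 CPM in uLN and 0.344 to 1.17 CPM in mLN, and their part in the result was not tested. Adgrg3, the granulocyte receptor GPR97 (95017113 to 95045250), starts 2904 bases beyond the end of Adgrg1, with no protein-coding gene between them, and went the other way. It had 4365, 4319 and 4239 reads in uLN and 2355, 2556 and 2093 in mLN, a fall of 1.88-fold without overlap (246 ± 3.80 to 130 ± 11.0 CPM, edgeR adjusted p = 4.33e-07). Adgrg5, the neighbour of Adgrg1 on its other side, had 1 read in all libraries together.

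Adgrl1, a latrophilin that binds teneurins and FLRT proteins of neighbouring cells (chromosome 8, 83900098 to 83941954), had 4581, 4433 and 4194 reads in uLN and 6156, 6087 and 5621 in mLN. The groups stood apart, and the level rose 1.32-fold from 251 ± 10.9 to 333 ± 8.74 CPM (edgeR adjusted p = 2.44e-05). Adgra3 and Adgrg7 rose 1.18-fold and 1.19-fold (edgeR adjusted p = 0.0163 and 0.0141), and each was lost in at least 2 of the 13 alternatives. The 5 tested members that did not pass were Adgrg6, a receptor needed for myelination of peripheral nerves (log2 fold change 0.08, edgeR adjusted p = 0.514), and Adgrl2, Adgrb1, Adgrb2 and Adgra2. Exons of Adgre5 and Adgrl1 overlap exons of other genes on the opposite strand, and the sources used here do not state whether the counting used strand. The same kind of overlap was found for the called receptors Mrgpre, Gpr55, Gpr137, Gpr137c, Gpr89 and Gpr182. Exons of Adgre5 also overlap Mir1668 on the same strand.

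**Figure D3:**
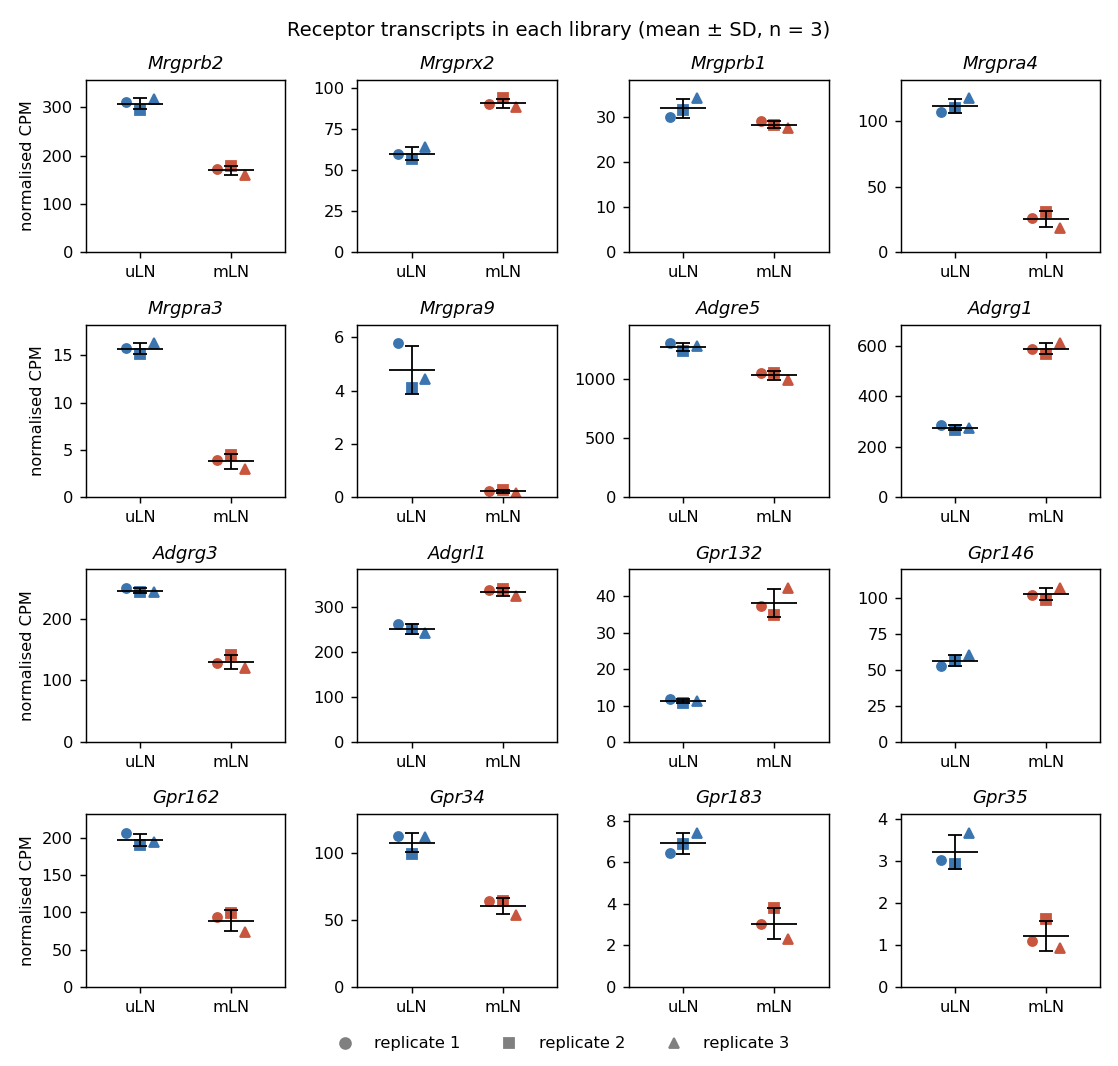
Normalised CPM of 16 receptor genes in each library. The y axis starts at 0 in every panel, points are the replicates of uLN and mLN by shape, the horizontal line is the mean and the bars the SD (n = 3 per group). Adgrg1 (276 to 590 CPM) and Gpr132 (11.3 to 38.1 CPM) rise without overlap, and the Mrgpra genes fall.

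Proton-sensing receptors report extracellular acid through histidines exposed outside the membrane, and Gpr132, grouped with them by sequence, also answers to oxidised fatty acids and lysolipids. Gpr132 (chromosome 12, 112850873 to 112868416) had 205, 191 and 196 reads in uLN and 681, 625 and 737 in mLN. All mLN libraries were higher, and the level rose 3.38-fold from 11.3 ± 0.486 to 38.1 ± 3.85 CPM (log2 fold change 1.76 ± 0.09, edgeR adjusted p = 8.16e-08). It was the largest rise among the tested receptors. Macrophages also express Gpr132; the summed macrophage and monocyte markers were higher in mLN as well, though 4 of the 7 tested were lower, and their part in the result was not tested. Gpr65, which raises cAMP in acid, had 71, 76 and 78 reads in uLN and 85, 88 and 89 in mLN. Its values did not overlap but the 1.14-fold higher mean did not pass (edgeR adjusted p = 0.265). Gpr4 had 2, 4 and 5 reads in uLN and 6, 6 and 4 in mLN and was not tested.

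Of the receptors listed under lipids, nucleotides and metabolites, most of those tested fell. The list also takes in relatives of such receptors, such as Gpr171. Of 13 found, 8 were described and 6 tested, with 5 lower and 1 higher and a median log2 fold change of -0.72, so that 83.3% of a small number fell, against 34.2% of all tested genes. Gpr34, a receptor for lysophosphatidylserine, had 1960, 1763 and 1945 reads in uLN and 1171, 1151 and 930 in mLN. It fell 1.78-fold, from 108 ± 7.25 to 60.5 ± 6.16 CPM, with no overlap (edgeR adjusted p = 5.51e-06). Gpr174, which answers to the same lipid, fell 1.45-fold from 80.5 ± 3.05 to 55.4 ± 1.99 CPM (edgeR adjusted p = 7.78e-06). Gpr171, a relative of the purinergic receptors, fell 1.53-fold from 72.4 ± 1.30 to 47.4 ± 2.19 CPM (edgeR adjusted p = 3.15e-06). The remaining falls were in genes of low level. Gpr183, the oxysterol receptor EBI2 that positions immune cells in lymphoid tissue, had 112, 122 and 129 reads in uLN and 55, 68 and 40 in mLN, a fall of 2.27-fold (edgeR adjusted p = 0.000234). Gpr35, a receptor for kynurenic acid that mast cells are known to carry, had 53, 52 and 64 reads in uLN and 20, 29 and 16 in mLN, a fall of 2.65-fold (edgeR adjusted p = 0.000607). Neither gene's groups overlapped. Gpr55, a receptor for lysophosphatidylinositol, rose 1.22-fold from 49.2 ± 0.762 to 59.8 ± 2.93 CPM (edgeR adjusted p = 0.000908). Gpr183, Gpr171 and Gpr174 are well known from lymphocytes. The summed B cell and T and NK cell markers reached at most 0.493 and 1.17 CPM in any library. Summed dendritic cell markers were higher, at most 10.3 CPM in uLN and 14.8 to 16.7 CPM in mLN. The part of lymphocytes or dendritic cells in the levels of these 3 genes was not tested.

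Among the other orphan receptors, 42 were found, 24 described and 17 tested, of which 9 fell, 3 rose and 5 did not pass. The share called, 70.6%, was near the background of 67.4%, with 52.9% lower and 17.6% higher against 34.2% and 33.2%. Gpr162, an orphan best known from brain, had the most reads of them, with 3603, 3361 and 3385 reads in uLN and 1717, 1786 and 1281 in mLN. The groups stood apart, and it fell 2.21-fold from 197 ± 8.69 to 89.0 ± 13.6 CPM (edgeR adjusted p = 2.08e-06). Gpr75 had 198, 195 and 213 reads in uLN and 72, 82 and 69 in mLN, a fall of 2.77-fold (edgeR adjusted p = 1.98e-06), and its exons overlap those of Asb3 on the same strand. Gpr176, a Gz-coupled orphan of the brain's circadian clock, had 189, 191 and 172 reads in uLN and 73, 94 and 66 in mLN, a fall of 2.42-fold (edgeR adjusted p = 2e-05). Its exons overlap those of Gm29232 on the same strand, so reads of either pair could be counted for the other gene.

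Gpr141 and Gpr141b lie side by side on chromosome 13, 16724 bases apart, and both fell. Gpr141 went from 83.7 ± 0.528 to 53.5 ± 3.83 CPM, a fall of 1.56-fold (edgeR adjusted p = 4.45e-06). Gpr141b had 12, 12 and 23 reads in uLN and 5, 1 and 4 in mLN, with a scaled ratio of summed reads of 0.208 (exact 95% interval 0.0939 to 0.418, edgeR adjusted p = 0.0037). Gpr61, an orphan of the nervous system, had 10, 15 and 11 reads in uLN and 8, 3 and 1 in mLN (log2 fold change -1.59, edgeR adjusted p = 0.0255). Its call was lost without uLN replicate 2, mLN replicate 2 or mLN replicate 3 (adjusted p = 0.0942, 0.0848 and 0.0735) and with DESeq2 (adjusted p = 0.0619), and its log2 fold change was -2.53 without mLN replicate 1. Gpr19 fell 1.59-fold (edgeR adjusted p = 0.000657), and the calls of Gpr153 and Gpr63 as lower had adjusted p of 0.0394 and 0.043 and were lost in 7 and 8 of the 13 alternatives.

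The 3 rises among these orphans were Gpr146, Gpr157 and Gpr182. Gpr146, known for its part in liver cholesterol handling, had 928, 994 and 1056 reads in uLN and 1868, 1781 and 1867 in mLN. It rose 1.82-fold, from 56.7 ± 3.77 to 103 ± 4.11 CPM, with every mLN library above every uLN library (edgeR adjusted p = 6.46e-07). Gpr157 rose 1.33-fold from 12.8 ± 0.177 to 17.0 ± 0.178 CPM (edgeR adjusted p = 0.000471). Gpr182, a chemokine scavenger of lymphatic endothelium, was called 1.57-fold higher (edgeR adjusted p = 0.0472), a call lost in 8 of the 13 alternatives.

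Several Gpr symbols name membrane proteins that are not classical heptahelical receptors. Of 9 found, 8 were described and tested, of which 3 fell, 2 rose and 3 did not pass. The shares, 37.5% lower and 25.0% higher, were near those of all tested genes, 34.2% and 33.2%. Gpr108, a protein of the Golgi, had 1766, 1793 and 1778 reads in uLN and 1640, 1626 and 1424 in mLN. It fell 1.16-fold, from 102 ± 0.537 to 87.3 ± 4.84 CPM (edgeR adjusted p = 0.0034). Gpr137b, a lysosomal protein, had 1480, 1526 and 1506 reads in uLN and 1667, 1605 and 1836 in mLN. The groups did not overlap, but the 1.11-fold higher mean did not pass (edgeR adjusted p = 0.0587), and 28.5% of its 50-base words occur in other genes. Its relatives were called in opposite directions, with Gpr137 1.49-fold lower (edgeR adjusted p = 2.07e-05) and Gpr137c 1.52-fold higher (edgeR adjusted p = 0.00837). Gpr89, a Golgi anion channel, fell 1.43-fold (edgeR adjusted p = 0.000335), and Gpr107, another Golgi protein, was 1.11-fold higher (edgeR adjusted p = 0.0299), a call lost in 6 alternatives.

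Levels not divided by length favour long transcripts, so the order of the genes is given per kilobase of exon. Adgre5 led in both groups, with 388 CPM per kb in uLN and 314 in mLN. In uLN, Mrgprb2 (148 CPM per kb), Adgrg3 (101), Mrgpra4 (88.3) and Adgrg1 (70.8) followed. In mLN, Adgrg1 (151) came next, followed by Mrgprb2 (81.8), Adgrg3 (53.5) and Adgrl1 (39.0), while Mrgpra4, at 20.1, was at rank 11. The order of Mrgprb2 and Adgrg1 was thus the opposite in the 2 groups. Differences between neighbours in these orders were not tested.

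Many receptors were at or near the detection floor. The 44 genes not described had at most 19 reads summed over the 6 libraries, among them the constitutively active Gpr3, Gpr6 and Gpr12, with 14, 4 and 8 reads, and Mrgprd and Mrgprf, with 1 and 6. None of these genes was tested. Of the 13 described but not tested, Gpr165 had 1, 1 and 0 reads in uLN and 10, 7 and 7 in mLN, a scaled ratio of 11.8 with an exact 95% interval of 2.92 to 103. Adgrf1 had 5, 5 and 4 reads in uLN and 21, 2 and 5 in mLN. Its highest value was in mLN replicate 1, which also held the highest keratinocyte marker sum, 133 CPM against 5.23 to 29.2 CPM in the other libraries, and the part of those cells was not tested. Gpr82, which lies 5274 bases from Gpr34 on chromosome X, had 3, 5 and 2 reads in uLN and 11, 15 and 3 in mLN, a scaled ratio of 2.84 (1.35 to 6.53), while Gpr34 fell.

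Genes that act with these receptors were read from lists of signalling partners and ligands. Of 13 tested G protein alpha subunits, 5 rose and 5 fell (median log2 fold change 0.07). Gnaz, the alpha subunit to which Gpr176 couples, fell 1.85-fold (edgeR adjusted p = 6.1e-07), and Gnas, the stimulatory subunit, rose 1.43-fold (edgeR adjusted p = 1.2e-05). Of 12 tested beta and gamma subunits, 7 rose and 2 fell (median 0.24). Gng2 rose 2.06-fold from 215 to 444 CPM (edgeR adjusted p = 3.79e-08) and Gnb5 6.21-fold from 1.46 to 9.13 CPM (edgeR adjusted p = 2.13e-07). Among 8 receptor kinases and arrestins, 3 rose and 2 fell (median 0.00), with Arrb2, which encodes beta-arrestin 2, 1.26-fold higher and Grk3 2.96-fold higher (edgeR adjusted p = 4.12e-05 and 7.37e-05). Of 15 tested adenylyl cyclases and cAMP effectors, 4 rose and 5 fell (median 0.12), and of the protein kinase A subunits Prkar2b, Prkar1a and Prkacb fell, Prkaca rose (log2 fold change 0.16, edgeR adjusted p = 0.00575), and Prkar2a and Prkar1b did not pass. The background for these counts is the same 33.2% higher and 34.2% lower.

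Of 11 tested ligands and enzymes that make ligands, 2 rose and 3 fell (median -0.13). Tgm2, the transglutaminase that binds Adgrg1, rose 5.07-fold from 47.3 to 240 CPM (edgeR adjusted p = 1.94e-09), beside the 2.13-fold rise of Adgrg1 itself. Cd55, the partner of Adgre5, rose 1.70-fold from 407 to 690 CPM (edgeR adjusted p = 3.75e-07), while Adgre5 fell. Prnp, the prion protein that activates Adgrg6, fell 2.04-fold from 4495 to 2207 CPM (edgeR adjusted p = 1.36e-08), while Adgrg6 did not pass the test. Hsd3b7, which breaks down the oxysterol ligand of Gpr183, fell 1.32-fold (edgeR adjusted p = 0.000202), and Ch25h and Cyp7b1, of the same pathway, were near 0.

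**Figure D4:**
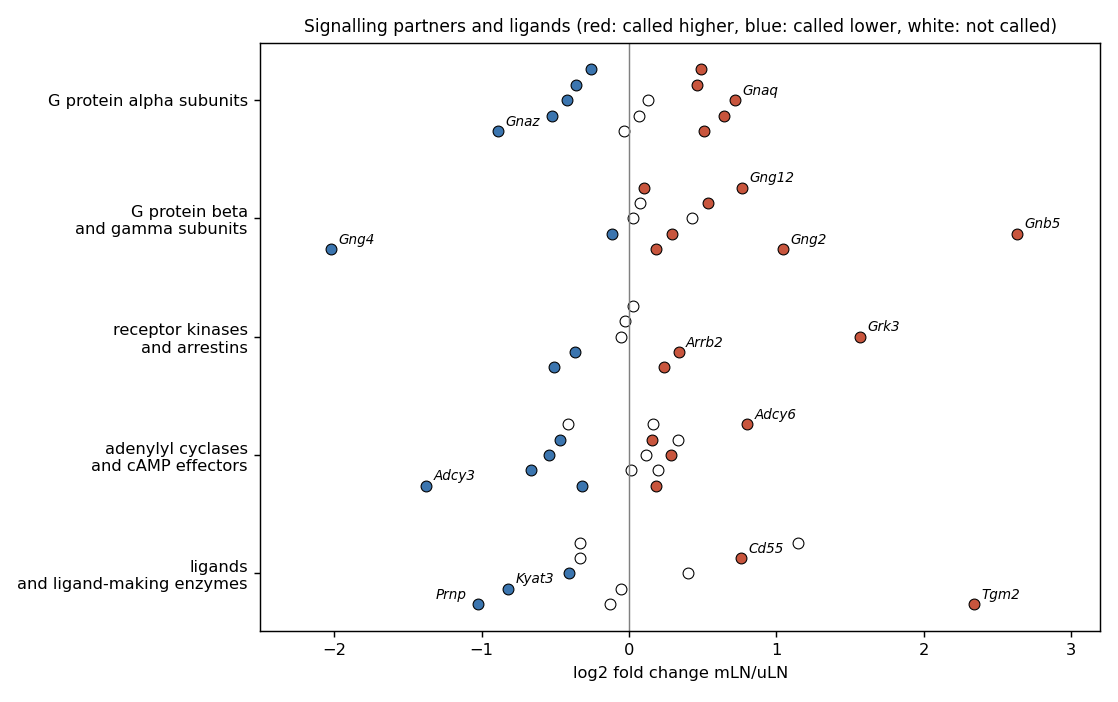
Log2 fold changes of mLN over uLN (x axis) for the tested genes of 5 lists of signalling partners and ligands (y axis). Each point is a gene, red where called higher, blue where called lower and white where not called, and vertical offsets within a list only separate the points; Gnb5 and Tgm2 lie farthest to the right and Gng4 (-2.02) farthest to the left.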

How the data were processed

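RNA of lymph node mast cells was sequenced in 3 uLN and 3 mLN libraries. The deposited table holds estimated counts per gene, of which 32.2% to 32.8% per library are not whole; per the submitters' processing notes the tools were cutadapt, FastQC and TopHat with genome build GRCm38, and the sources used here give no counter, annotation or strand setting. Groups and replicates were taken from the labels.

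The estimated counts were rounded, 1 row that names no gene was left out, and the 12706 of 17890 genes that passed edgeR's filterByExpr were fitted together with TMM scaling and the quasi-likelihood test on trended dispersion (edgeR 4.0.16, limma 3.58.1, R 4.3.3). Genes were called at a Benjamini-Hochberg adjusted p under 0.05 over all tested genes. The SE of a log2 fold change was back-calculated as its absolute value divided by the square root of the test's F statistic. CPM were computed on TMM-scaled library sizes. The common biological coefficient of variation was 6.49%. Because most genes were called, counts of called receptors are set beside the shares over all tested genes. RefSeq positions were matched by gene ID (17764 genes matched, all 112 receptors among them), and promoters by gene ID or symbol. Promoter windows were found for 53 of the 68 described receptors. Symbols turned to dates by a spreadsheet, 26 in all, were restored.

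Values in every library are given for receptors called with a fold of at least 2, the 8 with the highest mean CPM, every described Mrgpr gene and the proton-sensing receptors; of each pathway list, up to 4 genes were named in order of adjusted p, and Ch25h, Cyp7b1, Prkaca, Prkar2a, Prkar1b and the genes flanking the cluster were added with their values known. Some receptors counted among the members are not reported here by name. The members and lists were chosen with earlier results of these data known. The 13 alternatives were other scalings, no filter, a replicate block, robust moderation, DESeq2 1.42.0 and each library left out. Exact intervals of read ratios, scaled to library size, are 95% binomial (Clopper-Pearson). Exon lengths, exon overlaps and shared words came from GENCODE for GRCm38.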

Additional observations from a re-analysis of the deposited data

How the results depend on the processing

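The counts of 13 receptors higher and 27 lower ranged from 9 to 15 and from 23 to 26 with 1 library left out, and were 11 and 23 with DESeq2. Over all tested genes, 4219 were higher and 4347 lower, with ranges of 3843 to 4403 and 4017 to 4492 when 1 library was left out, and 4028 and 3962 with DESeq2. Of the 40 receptor calls, 32 were made under every alternative (9 higher, 23 lower) and no receptor call reversed. The 8 lost at least once were Mrgprb1, Gpr63, Gpr153, Gpr182, Gpr107, Gpr61, Adgra3 and Adgrg7, and Gpr61 did not pass the filter on low counts without uLN replicate 3. Of the 55 receptors tested in the main fit, 3 were called under some alternative only, Gpr137b, Gpr149 and Adgra2. Receptors tested only under an alternative are included in the counts of that alternative and are not named here. A replicate block gave 12 higher and 25 lower receptors (4122 and 4263 over all tested genes). Same-numbered libraries did not deviate together (correlations of 0.02, -0.15 and -0.01), so the numbers were not taken as pairs. The minimum of 20 reads decides how many receptors are described: 81 at 10 reads and 54 at 50. Depth limits the genes near the floor, where 40 of the 112 receptors had no read in at least 1 library.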
